A study of Mus musculus with 18 samples.

Results

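The cytochrome P450 genes of families 1 to 3 were followed in mouse liver through regeneration after partial hepatectomy. Members were all genes whose symbol was Cyp, then 1, 2 or 3, then a letter, with pseudogenes left out and at least 30 reads in sum over the 16 libraries whose tables were complete. Of 57 matching symbols, 3 were pseudogenes (Cyp2c53-ps, Cyp2d37-ps and Cyp2d13) and 10 had fewer reads, which left 44 members of 17173 named genes, in 14 subfamilies. The members just inside the threshold were Cyp2d12 (46 reads), Cyp2s1 (53) and Cyp2d11 (59), and those just outside were Cyp2j8 (23), Cyp2j13 (17) and Cyp2d34 (14). The study compared C57BL/6 mice after a sham operation with mice at 0.5, 2, 4, 24, 48, 72, 120 and 168 h after 2/3 partial hepatectomy, which removes most of the liver and lets the remnant regrow. RNA of whole liver from 3 mice was pooled for each library, and 2 such pools stood for each of the 9 groups. Variation between the mice of a pool is therefore not seen. The sham group carries the label control in place of a time, and the labels state neither the age nor the sex of the mice. In whole liver, fewer cells of a type and less RNA per cell cannot be told apart.

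Cytochrome P450 enzymes are membrane-bound heme proteins of the endoplasmic reticulum that insert an oxygen atom into their substrates. They take their electrons from the flavoprotein reductase encoded by Por. Families 1 to 3 hold the enzymes that metabolise drugs, toxicants, steroids, bile acids and fatty acids, and hepatocytes make far more of them than any other liver cell. Many are unevenly placed along the liver lobule: Cyp2e1 and Cyp1a2 mark the hepatocytes around the central vein, and Cyp2f2 marks those around the portal vein. Their transcription is driven by ligand-activated factors, among them the aryl hydrocarbon receptor (Ahr), the constitutive androstane receptor (Nr1i3, CAR) and the pregnane X receptor (Nr1i2, PXR).

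Most subfamilies lie as clusters of paralogs, and this bears on what a read count means. In RefSeq coordinates of GRCm38.p6, the 13 Cyp2c members lay on chromosome 19, the 7 Cyp2d members on chromosome 15, the 6 Cyp3a members on chromosome 5, and the Cyp2a and Cyp2b members on chromosome 7. Per the file headers only uniquely mapped reads were counted, so reads from stretches shared by paralogs were not assigned. Between GENCODE transcripts, Cyp2a4 and Cyp2a5 were identical at 98.3% of aligned bases, Cyp2c40 and Cyp2c68 at 98.0%, Cyp3a25 and Cyp3a59 at 97.0% and Cyp2c37 and Cyp2c50 at 95.8%. Of the 50-base windows of Cyp2c40, 72.1% occurred in another Cyp gene, against 40.8% for Cyp2a5, 0.336% for Cyp2e1, and none for Cyp2f2, Cyp2c44, Cyp2c70, Cyp2u1 and Cyp3a13. The last 5 thus share no such window with another Cyp gene, whereas values of Cyp2a4, Cyp2a5 and the Cyp2c40 group are uncertain in how reads were split. Cyp2u1, Cyp2a4, Cyp2c29, Cyp2d9, Cyp2d10, Cyp2f2 and 4 other members also shared exon bases with another annotated gene, whose reads cannot be told apart because no source states whether the counting used the strand. Cyp2c44, which GENCODE lists under another symbol, was not searched for such overlap.

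The likeness reaches upstream of the genes. The 250 bases before the RefSeq start (GRCm38.p6) are shown for a pair with very different levels, Cyp2a4 and Cyp2a5, and for a pair with near-equal levels, Cyp2c40 and Cyp2c69. Capitals mark the bases that differ within a pair and those outside the aligned stretch. Cyp2a4 (chr7:26306942-26307191, plus strand) and Cyp2a5 (chr7:26835089-26835338, plus strand) differed at 4 of 249 aligned bases, and Cyp2c40 (chr19:39812815-39813064, minus strand) and Cyp2c69 (chr19:39886770-39887019, minus strand) at 3 of 220.
Cyp2a4: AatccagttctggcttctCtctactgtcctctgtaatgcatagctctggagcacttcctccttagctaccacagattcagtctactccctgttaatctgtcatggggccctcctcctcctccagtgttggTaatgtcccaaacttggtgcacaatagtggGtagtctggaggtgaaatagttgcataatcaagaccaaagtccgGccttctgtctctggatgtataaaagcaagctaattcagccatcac
Cyp2a5: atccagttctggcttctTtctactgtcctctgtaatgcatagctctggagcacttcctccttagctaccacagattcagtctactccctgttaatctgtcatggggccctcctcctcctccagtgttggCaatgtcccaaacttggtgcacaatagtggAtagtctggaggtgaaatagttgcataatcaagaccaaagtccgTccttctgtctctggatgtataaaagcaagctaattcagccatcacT
Cyp2c40: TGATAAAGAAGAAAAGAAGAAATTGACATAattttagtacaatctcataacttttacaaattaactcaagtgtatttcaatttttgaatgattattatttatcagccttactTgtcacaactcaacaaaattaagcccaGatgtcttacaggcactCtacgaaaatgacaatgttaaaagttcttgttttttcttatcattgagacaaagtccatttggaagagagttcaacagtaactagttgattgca
Cyp2c69: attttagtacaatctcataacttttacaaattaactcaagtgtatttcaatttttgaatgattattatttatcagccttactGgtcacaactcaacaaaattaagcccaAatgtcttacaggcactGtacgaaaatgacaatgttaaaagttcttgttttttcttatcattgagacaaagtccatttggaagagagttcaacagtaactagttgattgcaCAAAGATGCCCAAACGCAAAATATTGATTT

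The same window is shown for Cyp1a1 (chr9:57697363-57697612, plus strand) and Cyp2b10 (chr7:25897408-25897657, plus strand), chosen for their rises at 24 h and at 4 h. Capitals here mark GCGTG, the core letters of the element bound by the aryl hydrocarbon receptor, searched on both strands (CACGC where it lies on the other strand). It stood 54 bases before the start of Cyp1a1, and 101 and 9 bases before that of Cyp2b10.
Cyp1a1: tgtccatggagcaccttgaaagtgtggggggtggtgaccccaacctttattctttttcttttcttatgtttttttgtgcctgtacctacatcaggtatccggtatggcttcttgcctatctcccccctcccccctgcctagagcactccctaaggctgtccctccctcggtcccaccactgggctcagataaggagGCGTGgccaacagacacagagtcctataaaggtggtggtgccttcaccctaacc
Cyp2b10: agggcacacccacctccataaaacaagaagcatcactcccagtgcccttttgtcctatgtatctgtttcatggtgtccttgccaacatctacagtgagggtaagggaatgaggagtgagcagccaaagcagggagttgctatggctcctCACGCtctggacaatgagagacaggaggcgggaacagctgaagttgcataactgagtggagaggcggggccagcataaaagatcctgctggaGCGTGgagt
RefSeq promoters matched 38 members. These letters were in 5 of their 40 promoter windows (Cyp1a1, Cyp1b1, Cyp2b10, Cyp2c68 and Cyp2j9), or 12.5%, against 28.2% of 32851 mouse promoter windows of the same length. The D-box TTATGTAA, bound by Dbp, Tef and Hlf, was in 0.819% of all windows and in none of the member windows.

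Libraries held 7.78 to 9.16 M uniquely mapped reads (M, 1e+06 reads). The tables of sham replicate 2 and of 0.5 h replicate 1 stopped at 52 and 157 reads a gene, so that an unlisted gene there is known only to lie below 6.52 and 19.0 CPM (reads per M of the TMM-scaled library size). Therefore 24 members with counts in all 18 libraries were tested in a fit of 18 libraries and 4905 genes. The other 20 could be tested only in a fit of the 16 complete libraries and 12197 genes, where sham and 0.5 h have 1 library each, and 16 of them passed its filter on low counts (all but Cyp1b1, Cyp2d11, Cyp2d12 and Cyp2s1). All 10 hepatocyte markers had reads in every group, with a summed level of 95672 to 181915 CPM over the complete libraries. The lowest sums, 95672 and 100015 CPM, were the 24 h pools. The 8 neutrophil and lymphocyte markers summed to 3.31 to 86.6 CPM, with Ly6g listed in no table, and the 8 Kupffer cell and macrophage markers to 391 to 1239.9 CPM. The 5 red cell markers with reads (Hbb-bt was listed in no table) summed to 140 to 404 CPM.

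Most of the 24 P450 members in the 18-library fit were called below sham at 4 h, 48 h and 72 h. A member too low to be listed in a short table is not among the 24. One that rose from a low sham level is therefore left out of these counts. Members outside the 24 went both ways and are given by subfamily below. Against sham, edgeR's quasi-likelihood test called 13 of the 24 members lower at 4 h, 9 lower at 24 h, 17 lower at 48 h, 15 lower at 72 h, 1 lower at 120 h and 4 lower at 168 h, and it called 2 members higher at 4 h and 1 at 2 h. Among all 4905 genes the share called lower was 18.8% at 4 h, 9.42% at 24 h, 18.9% at 48 h, 6.42% at 72 h, 0.387% at 120 h, and then 3.34% at 168 h, and the share called higher was 4.61% at 2 h and 16.9% at 4 h. At 0.5 h no member was called (5 had an unadjusted p under 0.05, and DESeq2 called none either), where 0.204% of all genes were called in either direction. The members' median log2 change was -0.15 at 0.5 h, -0.03 at 2 h, -0.50 at 4 h, -0.46 at 24 h, -0.77 at 48 h, -0.79 at 72 h, -0.35 at 120 h, and then -0.24 at 168 h, while the median of all genes stayed within 0.02 of 0 in each comparison. Over all 9 groups 22 of the 24 differed (68.6% of all genes did), the exceptions being Cyp2c38 and Cyp3a11, and 11 of the other 16 differed in the fit of 16 libraries (42.8% of all genes). When members in the 18-library fit were summed by subfamily, 7 of 8 sums differed (68.5% of all genes), all but Cyp3a. Of the 24, 9 had their lowest group mean at 48 h and 6 at 72 h, and none had its highest at 48 h.

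These counts lean on single pools, both of sham and of the time itself. Without sham replicate 1 the number called was 9 at 4 h, 3 at 24 h and 5 at 72 h, and without sham replicate 2 it was 6, 4 and 8. Without the second pool of the time itself it was 4 at 24 h, 11 at 48 h and 2 at 72 h. No called change of any member turned its direction under any alternative tried.

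**Figure D1:**
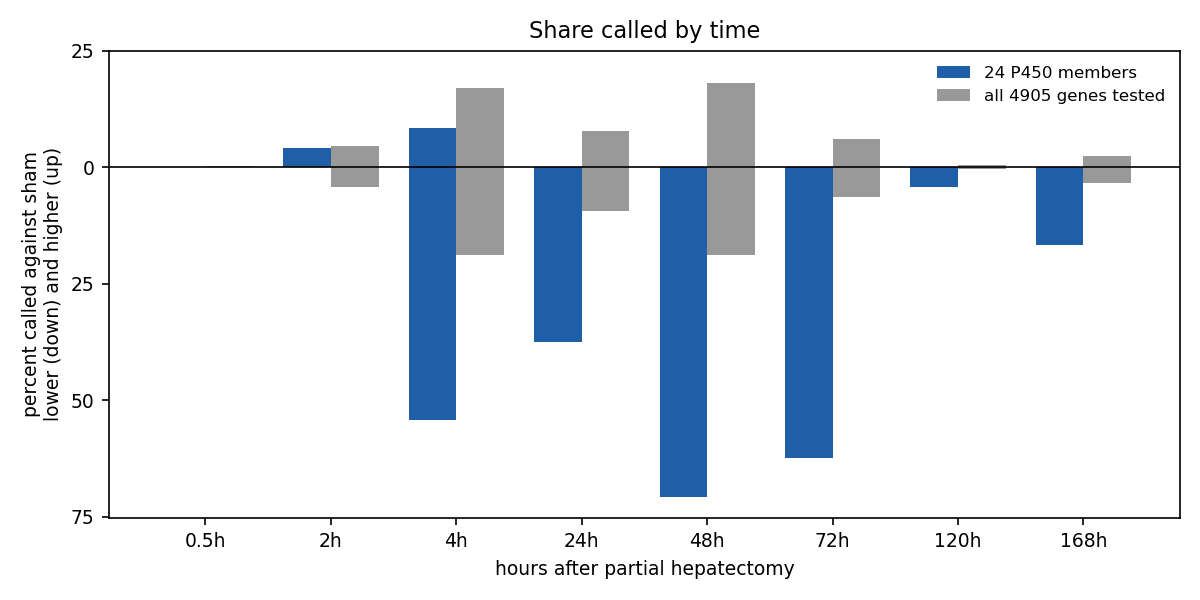
Percent called lower (bars down) and higher (bars up) than sham at each time after partial hepatectomy, for the 24 members (blue) and all 4905 genes tested (grey). The blue bars down are longest at 48 h and 72 h, where 17 and 15 of the 24 members were called lower.

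**Figure D2:**
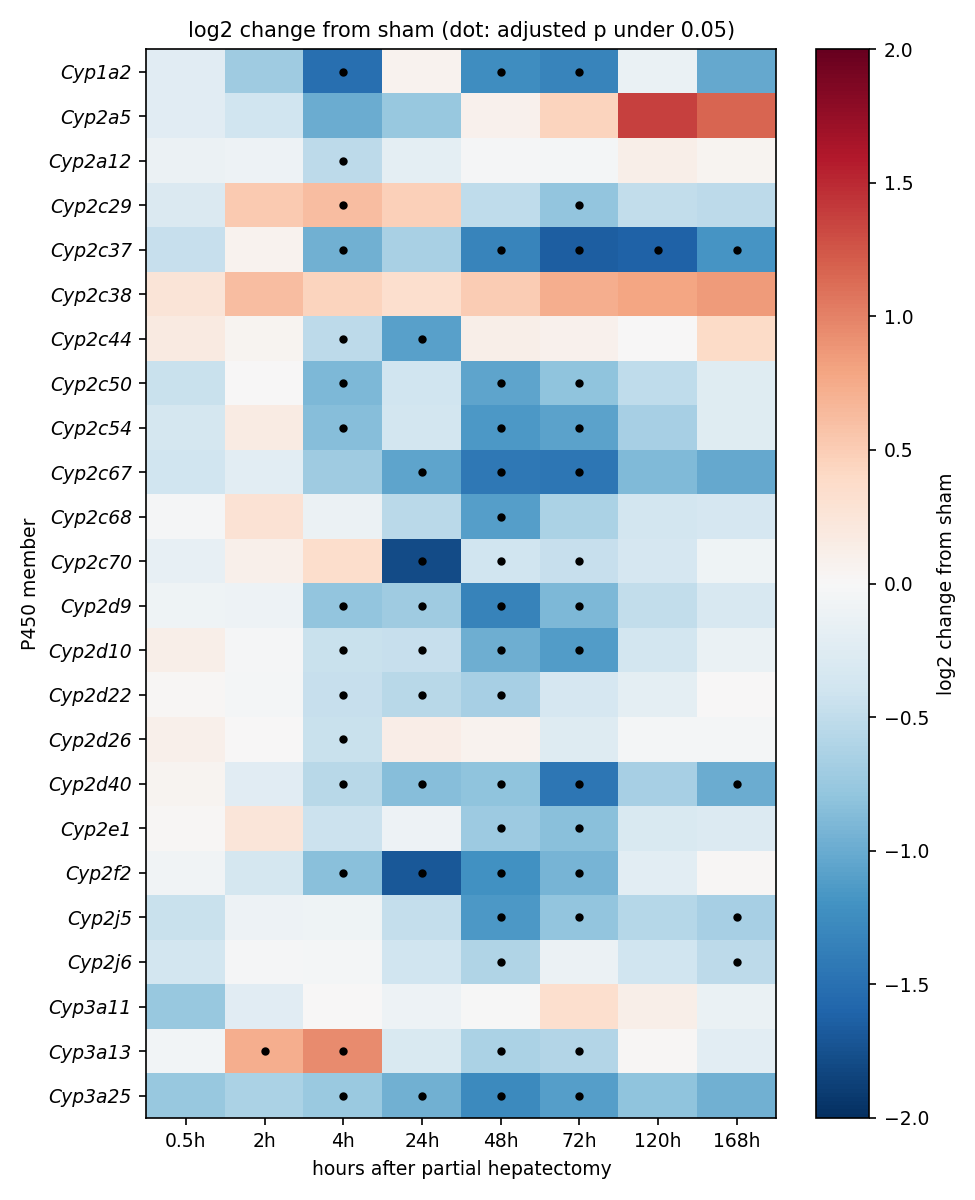
log2 change from sham of the 24 members (rows) at 8 times (columns), red higher and blue lower, with a dot where the adjusted p was under 0.05. Blue with dots fills most rows at 48 h and 72 h, Cyp2c70 and Cyp2f2 are darkest at 24 h, and dots on red are seen at 2 h and 4 h alone (Cyp3a13 and Cyp2c29).

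Compared per length over the 16 complete libraries, the deposited mean RPKM of the leading member of each subfamily was highest for Cyp2e1 (3059 RPKM), then Cyp3a11 (1828), Cyp2c29 (1324), Cyp2f2 (796), Cyp1a2 (520), Cyp2d26 (453), Cyp2a12 (309) and Cyp2j5 (148). Other members of these subfamilies lay in between, among them Cyp2c70 (664) and Cyp2d9 (369). The leaders of the other subfamilies were far lower: Cyp2b10 at 30.5, Cyp2r1 at 7.44, Cyp2u1 at 4.41, Cyp2g1 at 0.547, Cyp1b1 at 0.162 and Cyp2s1 at 0.146 RPKM. The 24 members together took 2.48 ± 0.13% of a sham library's reads (mean ± SD, n = 2 pools), 1.63 ± 0.30% at 4 h, 1.85 ± 0.14% at 48 h and 2.10 ± 0.08% at 168 h.

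**Figure D3:**
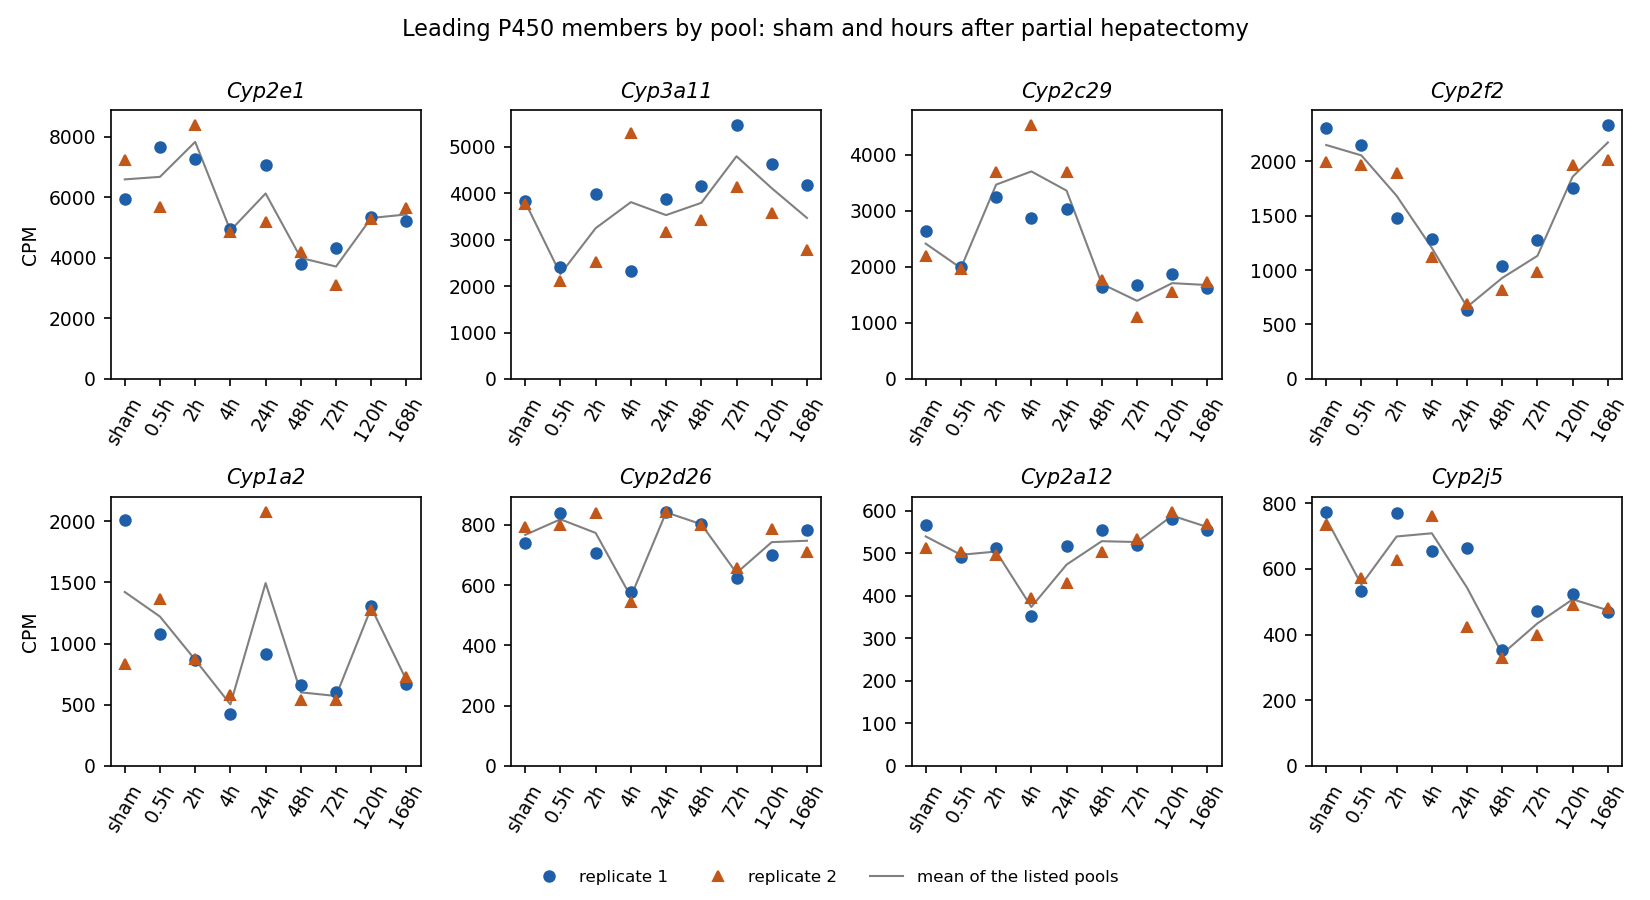
Level in CPM of the leading member of each of the 8 most abundant subfamilies in both pools of every group (blue and orange points; the line joins group means; axes start at 0). Cyp2f2 falls to 633 and 691 CPM at 24 h and is back at 2014 and 2331 CPM at 168 h, while the pools of Cyp3a11 at 4 h lie at 2316 and 5301 CPM.

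The Cyp1a subfamily, whose enzymes oxidise planar aromatic compounds and caffeine, held the least even values. Cyp1a2, the constitutive hepatic member, stood at 2007 and 837 CPM in the sham pools, 428 and 578 at 4 h, 665 and 538 at 48 h, and 605 and 539 at 72 h. All 6 of these later pools lay below both sham pools, but the sham pools themselves differed by more than any of the others at those times. The log2 change was -1.50 ± 0.37 (SE) at 4 h (edgeR adjusted p = 0.00691), -1.24 ± 0.37 at 48 h and -1.31 ± 0.37 at 72 h, and all 3 calls were lost without sham replicate 1. The pools of Cyp1a2 at 24 h were as far apart as those of sham, at 916 and 2074 CPM. Cyp1a1, the inducible member and the textbook reporter of aryl hydrocarbon receptor activity, stood at 12.3 CPM in 24 h replicate 1 and 189 CPM in 24 h replicate 2, the same pool in which Cyp1a2 was at 2074. Outside 24 h it lay between 0.431 and 5.28 CPM in every complete library, with sham replicate 1 at 1.38 CPM and sham replicate 2 below 6.52 CPM. Both 24 h pools thus exceeded every other known value of Cyp1a1. The contrast with sham, 6.16 ± 1.54 on the log2 scale, had an adjusted p of 0.0500042 and was not called. From the summed reads (1931 at 24 h, 11 in sham replicate 1) the ratio was 73.9 with an exact 95% interval of 41.2 to 148, which covers counting error only. Cyp1b1 stayed at 0.431 to 1.36 CPM in the complete libraries and was too low to test.

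The Cyp2a and Cyp2b genes, neighbours on chromosome 7, moved at different times and in different directions. Cyp2a12, a steroid hydroxylase, stood at 566 and 513 CPM in sham and 353 and 394 CPM at 4 h, with no overlap, and its log2 change of -0.53 ± 0.12 was called in each of 18 fits that left out a library. It was called at no other time. Cyp2a22, its near-copy, went from 10.4 and 9.52 CPM in sham to 5.34 and 4.84 CPM at 4 h (log2 change -1.06 ± 0.29 in the fit of 16 libraries, adjusted p = 0.0272). DESeq2 did not make that call. Cyp2a5, the coumarin hydroxylase, differed among the groups (adjusted p = 0.000958) without passing the test against sham at any time: its pools were 191 and 162 CPM in sham, 65.0 and 112 at 4 h, 63.9 and 146 at 24 h, 317 and 598 at 120 h, and 323 and 469 at 168 h. The 120 h and 168 h pools were the 4 highest of the 18.

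Cyp2b10, the classic target gene of CAR, had the steepest early rise of any member that both sham tables list. It went from 22.1 and 22.4 CPM in sham to 122 and 124 CPM at 2 h and 215 and 323 CPM at 4 h. By 24 h it was down to 34.3 and 55.5 CPM, and at 168 h it stood at 9.20 and 8.21 CPM. All 4 pools at 2 h and 4 h were above every other pool in which the gene was listed. In the fit of 16 libraries the log2 changes were 2.53 ± 0.49 at 2 h (adjusted p = 0.0141) and 3.57 ± 0.51 at 4 h (adjusted p = 0.000590), where 2.65% and 15.5% of all genes were called. At 168 h the log2 change was -1.31 ± 0.47 and was not called. Cyp2b9 and Cyp2a4, known as female-biased genes of mouse liver, behaved otherwise. Cyp2b9 had 1 read in sham replicate 1 (0.125 CPM) and stood at 7.08 and 18.8 CPM at 48 h, a ratio of 103 from the summed reads with an exact 95% interval of 18.3 to 4087. Cyp2a4 stood at 0.750 CPM in sham replicate 1 and 23.5 and 40.0 CPM at 48 h, a ratio of 42.2 with an exact 95% interval of 19.3 to 115. Both were called at 48 h in the fit of 16 libraries (adjusted p = 0.0249 and 0.0421), where sham replicate 2 is known only to lie below 6.52 CPM. Both varied widely between pools of 1 group: Cyp2a4 was at 61.4 CPM in 0.5 h replicate 2, 0.809 and 18.1 CPM in the 4 h pools and 5.73 and 29.1 CPM in the 120 h pools, and Cyp2b9 at 10.2 CPM in that 0.5 h pool and 3.55 and 28.8 CPM at 120 h. The Cyp2a4 call was lost in 6 of 15 fits that left out a library, and the Cyp2b9 call without 48 h replicate 2. Of 8 genes listed as female-biased 5 could be tested, and against sham these 2 were called higher at 48 h (14.9% of the genes of this fit were called then) and none of the 5 at another time. Cyp2c69, another of the 5, went the other way at 48 h. With sham replicate 2 added it was called lower then, with a log2 change of -1.51 (edgeR adjusted p = 0.0499). With genes unlisted in a short table set to 0, neither Cyp2b9 nor Cyp2a4 was called at 48 h.

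**Figure D4:**
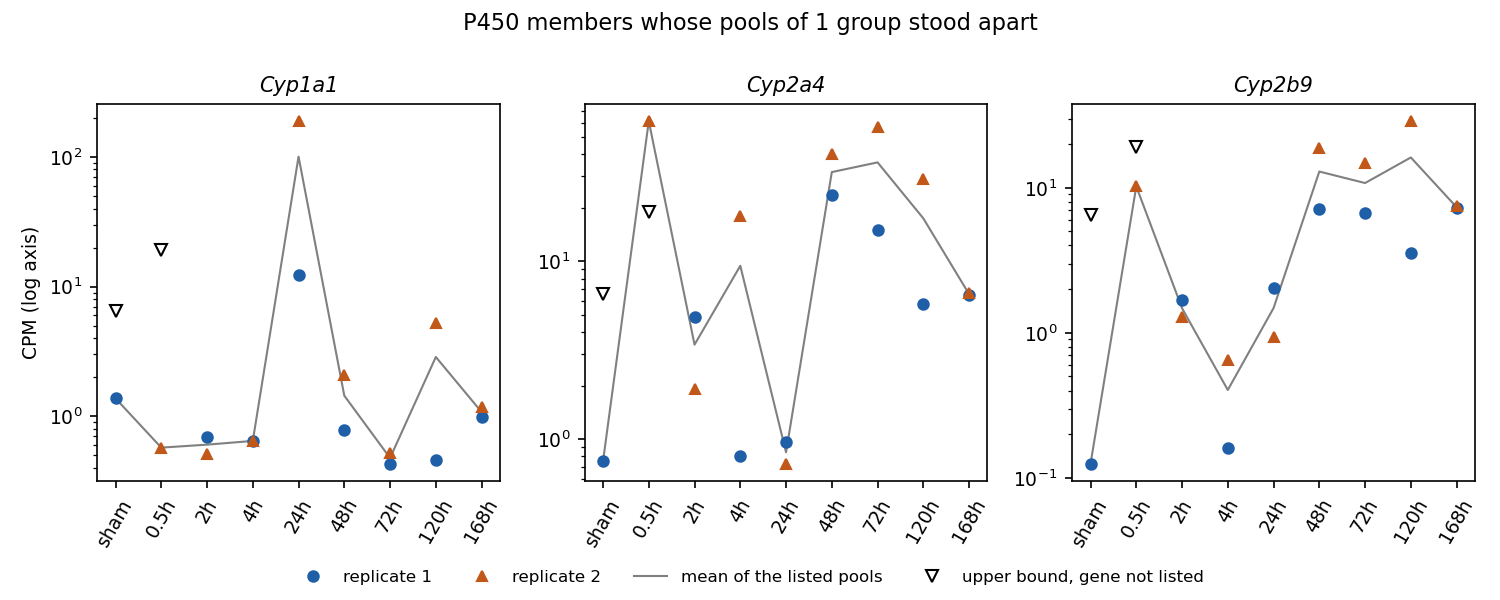
Level in CPM (log axis) of Cyp1a1, Cyp2a4 and Cyp2b9 in both pools of every group. Open triangles mark the bound of a table that does not list the gene. The 24 h pools of Cyp1a1 lie at 12.3 and 189 CPM, and those of Cyp2a4 at 4 h at 0.809 and 18.1 CPM.

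The Cyp2c subfamily, the largest, holds epoxygenases of arachidonic acid and hydroxylases of drugs and steroids. Its summed level over 9 members was 6309 and 5544 CPM in sham, and its log2 change was -0.56 ± 0.15 at 48 h (adjusted p = 0.0127) and -0.66 ± 0.15 at 72 h (adjusted p = 0.0148). The sum was not called at 4 h, where single members were called in both directions, or at 24 h, where Cyp2c44, Cyp2c67 and Cyp2c70 were called lower and none higher. Cyp2c29, the leading member and an epoxygenase, went from 2639 and 2188 CPM in sham to 2878 and 4526 at 4 h and 1684 and 1103 at 72 h. Its log2 change was 0.62 ± 0.22 at 4 h (adjusted p = 0.0462) and -0.79 ± 0.22 at 72 h (adjusted p = 0.0345), with no overlap with sham on either side. The rise was narrow: it was lost in 13 of 18 fits that left out a library. It was also lost under limma, library totals alone and the block on replicate number. The same held with only the groups compared, with unlisted genes set to 0, and in the sets of 16 and 17 libraries. The call at 72 h was lost without either sham pool, and without the second pool of 48 h or of 72 h. It was also lost with only the groups compared, with unlisted genes set to 0 and in the 16 libraries.

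Cyp2c37 was called lower at 4 h and from 48 h to 168 h, but not at 24 h, where its pools were 136 and 80.6 CPM. It stood at 161 and 180 CPM in sham, 72.2 and 104 at 4 h, 67.5 and 68.9 at 48 h, 64.8 and 44.1 at 72 h, 53.1 and 57.7 at 120 h and 67.4 and 82.3 at 168 h. All of these later pools lay below both sham pools. Its log2 change was -0.95 ± 0.27 at 4 h, -1.32 ± 0.27 at 48 h, -1.65 ± 0.28 at 72 h, -1.62 ± 0.28 at 120 h, and then -1.19 ± 0.27 at 168 h, and it was the sole member called at 120 h (adjusted p = 0.0214). The 120 h and 168 h calls were lost when either sham pool, or either pool of that time, was left out. Its near-copies Cyp2c50 and Cyp2c54 fell by 1.05 and 1.14 on the log2 scale at 48 h, and Cyp2c67 and Cyp2c68 fell by 1.43 and 1.11. Cyp2c67 stood at 347 and 301 CPM in sham, 128 and 113 at 48 h and 139 and 98.7 at 72 h, where its log2 change was -1.45 ± 0.30. Cyp2c40 and Cyp2c69, close copies of Cyp2c67 and Cyp2c68 and much lower in level, ran side by side: 19.4 and 16.3 CPM in sham replicate 1, 31.3 and 31.8 in 0.5 h replicate 2, 3.12 and 5.82 in 24 h replicate 2, and 3.04 and 2.52 in 72 h replicate 2. They differed among the groups in the fit of 16 libraries (adjusted p = 0.0155 and 0.0184) and were called against sham at no single time there. With sham replicate 2 added both were called lower at 48 h, with log2 changes of -1.77 and -1.51 (adjusted p = 0.0426 and 0.0499).

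Cyp2c70, a bile acid hydroxylase that makes the muricholic acids of rodents, had its change at 24 h. It was at 1494 and 1230 CPM in sham, 1908 and 1576 at 4 h, 394 and 397 at 24 h, 1079 and 982 at 48 h and 1322 and 1246 at 168 h. The 24 h pools were nearly equal to each other and lay far below all 16 other pools. The log2 change from sham at 24 h was -1.78 ± 0.14 (adjusted p = 2.31e-05), and it was called in each of 18 fits that left out a library. The smaller falls at 48 h and 72 h were -0.40 ± 0.14 and -0.47 ± 0.14. Their calls were kept in 14 and 8 of 18 fits that left out a library. Both were lost under scaling by library totals alone, with only the groups compared, with unlisted genes set to 0 and in the 16 libraries. Cyp2c44, an epoxygenase whose gene RefSeq now names Cyp2c23, likewise had its fall at 24 h, from 479 and 485 CPM in sham to 254 and 200 CPM (log2 change -1.09 ± 0.19, adjusted p = 0.00225). It had also fallen by 0.53 at 4 h. At 24 h, 5 of 10 hepatocyte markers were called lower and none higher, with a median log2 change of -0.46, beside -0.46 for the P450 members. The part of that in these falls was not tested. Cyp2c55, a mostly extrahepatic member, rose instead, from 21.8 and 15.4 CPM in sham to 59.9 and 44.9 at 48 h and 49.7 and 63.0 at 72 h. Those 4 pools were the highest of the 17 that list the gene. The log2 change was 1.24 ± 0.37 at 48 h (adjusted p = 0.0410), and 1.34 ± 0.37 at 72 h, not called (adjusted p = 0.0664). The 48 h call was lost in 8 of 15 fits that left out a library. With sham replicate 2 added both times were called, with log2 changes of 1.47 (adjusted p = 0.00421) and 1.58 (adjusted p = 0.00777).

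**Figure D5:**
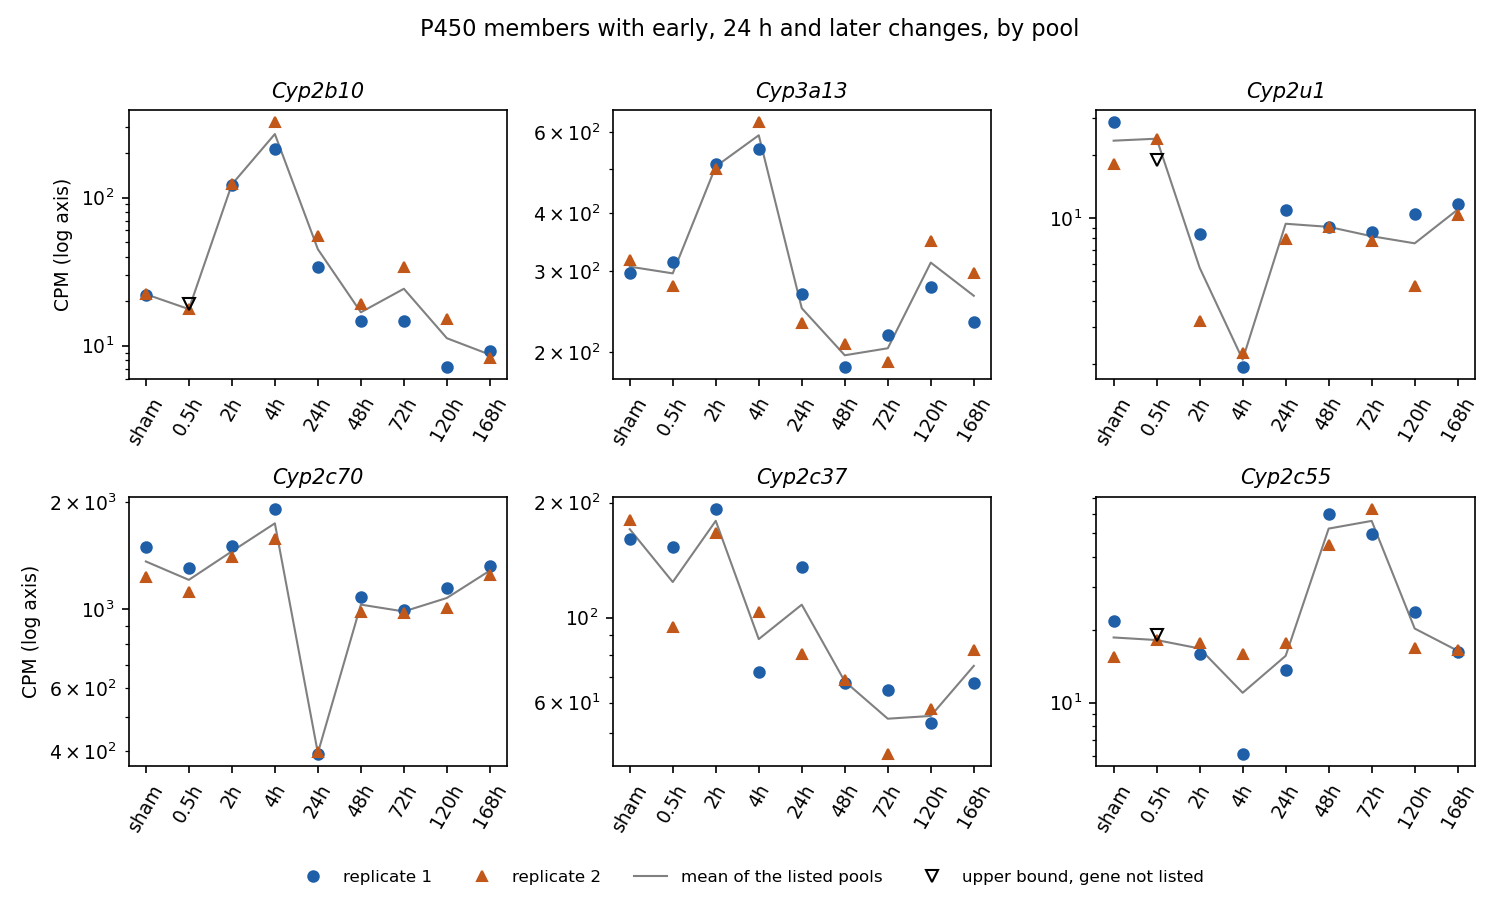
Level in CPM (log axis) of 6 members in both pools of every group. Open triangles mark the bound of a table that does not list the gene. Cyp2b10 and Cyp3a13 peak at 4 h, Cyp2u1 is lowest at 4 h, Cyp2c70 at 24 h, Cyp2c37 stays low to 168 h, and Cyp2c55 is highest at 48 h and 72 h.

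The Cyp2d members in the 18-library fit fell together at 4 h. Its 5 members in the 18-library fit summed to 2303 and 2380 CPM in sham, and the log2 change of the sum was -0.58 ± 0.13 at 4 h, -0.62 ± 0.13 at 48 h and -0.66 ± 0.13 at 72 h (adjusted p = 0.00396, 0.00336 and 0.00610). All 5 were called lower at 4 h. Of these 4 h calls, that of Cyp2d9 was kept in each of 18 fits that left out a library. Those of Cyp2d10, Cyp2d22, Cyp2d26 and Cyp2d40 were each lost without sham replicate 2 and without 4 h replicate 2. Cyp2d26, the leading member, was called at 4 h alone: it stood at 740 and 793 CPM in sham, 578 and 545 at 4 h, and 842 and 841 at 24 h. Cyp2d9, a male-biased steroid hydroxylase, had the deepest fall of the subfamily at 48 h, from 881 and 895 CPM in sham to 366 and 340 (log2 change -1.33 ± 0.17). Cyp2d40 had the deepest at 72 h, from 80.3 and 78.6 CPM to 33.4 and 25.2 (log2 change -1.44 ± 0.19), and was still called lower at 168 h at 39.2 and 40.4 CPM (log2 change -0.996 ± 0.188, adjusted p = 0.0185). That late call was lost without either sham pool or either 168 h pool. Cyp2d10 fell by 1.12 at 72 h, and Cyp2d22 by 0.67 at 48 h.

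Cyp2e1 and Cyp2f2, the textbook markers of opposite ends of the lobule, were both called lower at 48 h and 72 h, and Cyp2f2 also at 4 h and 24 h. Cyp2e1, the ethanol and acetaminophen oxidase, stood at 5961 and 7236 CPM in sham, 7287 and 8389 at 2 h, 4962 and 4853 at 4 h, 3809 and 4194 at 48 h, 4329 and 3103 at 72 h, and 5225 and 5654 at 168 h. Its log2 change was -0.72 ± 0.20 at 48 h (adjusted p = 0.0142) and -0.83 ± 0.20 at 72 h (adjusted p = 0.0179), and both calls were lost without sham replicate 2 and without the second pool of the time. At 4 h it was -0.43 ± 0.20 and was not called. Cyp2f2, an oxidase of naphthalene, stood at 2301 and 1997 CPM in sham, 1287 and 1121 at 4 h, 633 and 691 at 24 h, 1036 and 819 at 48 h, 1276 and 986 at 72 h, and 2331 and 2014 at 168 h. Its log2 change was -0.84 ± 0.18 at 4 h, -1.70 ± 0.18 at 24 h, -1.21 ± 0.18 at 48 h, and then -0.93 ± 0.18 at 72 h, with an adjusted p of 0.000109 at 24 h. By 168 h the log2 change was 0.02 ± 0.17, which leaves the pools of that time overlapping those of sham. Of the 7 members known as pericentral, 3 were called lower and 1 higher at 4 h, none at 24 h, 4 lower at 48 h and 5 lower at 72 h, with median log2 changes of -0.90, -0.11, -0.72 and -0.81. The difference between the pericentral and periportal courses was not tested.

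The Cyp2j members were lowest at 48 h. Cyp2j5, the leading member, went from 773 and 733 CPM in sham to 352 and 329 at 48 h, 470.5 and 398 at 72 h, and 468 and 480 at 168 h, below both sham pools in all 6 later pools. The log2 change was -1.14 ± 0.18 at 48 h (adjusted p = 0.000578), -0.79 ± 0.18 at 72 h and -0.67 ± 0.18 at 168 h (adjusted p = 0.0468). Cyp2j6 changed by -0.60 ± 0.14 at 48 h and -0.52 ± 0.14 at 168 h. The 168 h calls of Cyp2j5 and Cyp2j6 were lost in 10 and 9 of 18 fits that left out a library. Cyp2j9 stood at 5.38 CPM in sham replicate 1 and 1.38 and 1.10 CPM at 48 h (log2 change -2.13 ± 0.56 in the fit of 16 libraries, adjusted p = 0.0235), but sham replicate 2 is known only to lie below 6.52 CPM. Of a list of 7 genes taken as arachidonic acid epoxygenases, 5 were in the 18-library fit. Among these, 2 were called lower at 48 h, 72 h and 168 h each, 1 lower at 24 h, and 1 lower and 1 higher at 4 h.

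Cyp2u1, an orphan enzyme that hydroxylates long-chain fatty acids, had the steepest early fall. It stood at 28.8 and 18.2 CPM in sham and 24.0 in 0.5 h replicate 2, then 8.35 and 3.21 at 2 h, 1.94 and 2.26 at 4 h, 10.9 and 7.89 at 24 h and 11.6 and 10.3 at 168 h. No pool from 2 h on reached the lower sham pool. Its log2 change was -2.27 ± 0.42 at 2 h (adjusted p = 0.0118), -3.80 ± 0.48 at 4 h (adjusted p = 0.000260), -1.63 ± 0.41 at 24 h, -1.69 ± 0.41 at 48 h and -1.84 ± 0.41 at 72 h, all from the fit of 16 libraries, whose sham library was the higher of the pair. The share of all genes called there was 2.92% at 24 h and 3.82% at 72 h. With sham replicate 2 added the log2 change was -2.003 at 2 h and -3.48 at 4 h, both called. The 24 h call was lost in 11 of 15 fits that left out a library. Cyp2r1, the vitamin D 25-hydroxylase, stayed between 8.25 and 15.01 CPM in the 17 libraries that list it and did not differ among the groups (adjusted p = 0.777). Cyp2g1, best known from olfactory mucosa, ranged from 0.128 to 3.20 CPM, and Cyp2s1 from 0 to 1.15 CPM, in the complete libraries. A count of 0 allows up to 0.485 CPM in the library with the smallest effective size.

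In the Cyp3a subfamily, which oxidises the widest range of drugs, the leading member did not pass the test, while Cyp3a13 and Cyp3a25 were called on opposite sides of sham at 4 h and both lower at 48 h and 72 h. Cyp3a11 stood at 3839 and 3774 CPM in sham, 2407 and 2114 at 0.5 h, 2316 and 5301 at 4 h, 4165 and 3423 at 48 h, 5466 and 4128 at 72 h and 4170 and 2768 at 168 h. The 4 h pools were further apart than any pair of group means, and the test over all groups gave an adjusted p of 0.272. The subfamily sum, which Cyp3a11 dominates, likewise did not pass (adjusted p = 0.307). Cyp3a13 rose from 297 and 316 CPM in sham to 512 and 499 at 2 h and 551 and 630 at 4 h, then fell to 186 and 208 at 48 h and 218 and 190 at 72 h. Its pools were above both sham pools at the early times and below both at the later ones. The log2 change was 0.72 ± 0.15 at 2 h (adjusted p = 0.00938), 0.95 ± 0.15 at 4 h (adjusted p = 0.000362), -0.64 ± 0.15 at 48 h and -0.59 ± 0.15 at 72 h. Cyp3a25 was lower than sham throughout, from 345 and 346 CPM to 169 and 243 at 4 h, 206 and 149 at 24 h, 163 and 122 at 48 h and 200.5 and 120 at 72 h. It was called at each of these 4 times, with a log2 change of -1.27 ± 0.27 at 48 h. The 48 h call was kept in each of 18 fits that left out a library. Those at 4 h, 24 h and 72 h were each lost without either sham pool and in the 16 libraries. Its near-copy Cyp3a59 was called at none of the 4 times, but it was tested in the fit of 16 libraries, with 1 sham library. With sham replicate 2 added it was again not called. Its log2 changes were then -0.65 and -0.92 at 4 h and 24 h, beside -0.75 and -0.96 for Cyp3a25. For 48 h and 72 h they were -0.05 and -0.02, beside -1.27 and -1.11. The difference between the 2 copies was not tested. Of the 5 members known as targets of CAR or PXR, Cyp2b10 and Cyp3a13 were called higher at 2 h, Cyp2b10, Cyp3a13 and Cyp2c29 at 4 h, and Cyp2c55 at 48 h. Cyp3a13 was called lower at 48 h and 72 h and Cyp2c29 lower at 72 h, and Cyp3a11 was called at no time.

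The comparison of 24 h with 4 h does not rest on sham. Of 40 members tested, 5 were higher and 4 lower at 24 h, where 11.7% and 10.7% of all genes were. Cyp1a1 (log2 difference 7.27 ± 1.29), Cyp2u1 (2.16 ± 0.46), Cyp1a2 (1.59 ± 0.29), Cyp2a22 (1.01 ± 0.25) and Cyp2d26 (0.59 ± 0.15) were higher. Cyp2b10 (-2.57 ± 0.36), Cyp2c70 (-2.13 ± 0.16, adjusted p = 3.61e-06), Cyp3a13 (-1.23 ± 0.18) and Cyp2f2 (-0.85 ± 0.20) were lower. Scaling by library totals alone, which moved the median of all genes by 0.48, gave 15 higher and 3 lower. The 4 h libraries had the lowest scaling factors, and the same scaling turned the 2 higher and 13 lower calls at 4 h against sham into 1 and 18.

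From 48 h to 168 h, 6 of the 40 members were higher and 1 lower, where 6.92% and 6.81% of all genes were. Cyp2f2 rose by 1.29 ± 0.21 on the log2 scale (adjusted p = 0.00156), Cyp2d9 by 1.07 ± 0.20, Cyp2c54 by 0.96 ± 0.29, Cyp2d10 by 0.90 ± 0.16, Cyp2c50 by 0.88 ± 0.20 and Cyp2d22 by 0.73 ± 0.18. Cyp2c55 fell, by 1.62 ± 0.30, from 59.9 and 44.9 CPM to 16.2 and 16.5 CPM. Leaving out either 48 h pool reduced the 7 calls to 4. Cyp2c37, Cyp2d40, Cyp2j5 and Cyp2j6, the members called lower than sham at 168 h, were not called in this comparison. At 168 h, 5 of 6 Kupffer cell and macrophage markers in the 18-library fit were called higher than sham, as were 2.41% of all genes, with a median log2 change of 1.16; their part in these values was not tested.

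Por, the reductase that passes electrons to the P450 enzymes, rose from 2 h to 48 h. It stood at 218 and 335 CPM in sham, 578 and 689 at 2 h, 763 and 850 at 4 h, 462 and 496 at 24 h, 431 and 481 at 48 h and 222 and 221 at 168 h. All pools from 2 h to 48 h exceeded both sham pools. Its log2 change was 1.20 ± 0.18 at 2 h, 1.54 ± 0.18 at 4 h (adjusted p = 3.17e-05), 0.79 ± 0.18 at 24 h and 0.72 ± 0.18 at 48 h. Of the 16 genes for electron transfer partners and heme synthesis and breakdown, 12 were in the 18-library fit, with 2 higher and 4 lower at 4 h and a median log2 change of -0.26. Hmox1, the heme oxygenase that breaks heme down, rose by 2.68 ± 0.45 at 2 h and 3.16 ± 0.45 at 4 h. Cyb5b, the mitochondrial cytochrome b5, fell by 0.92 at 4 h, 0.72 at 24 h and 0.75 at 48 h. Cyb5a, the cytochrome b5 of the endoplasmic reticulum, stood at 783 and 798 CPM in sham and 1129 and 1228 CPM at 24 h, a rise of 0.58 ± 0.16 on the log2 scale (adjusted p = 0.0216). Alas1, which catalyses the first step of heme synthesis, was at 335 and 598 CPM in sham and 246 and 156 CPM at 72 h (log2 change -1.21 ± 0.30, adjusted p = 0.0176). Pgrmc1, a membrane protein that binds heme and P450 enzymes, fell by 0.88 at 48 h and 0.62 at 72 h.

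Among 25 regulators of P450 transcription, a list that also holds Por, 19 were in the 18-library fit. Of these, 3 were higher and 4 lower at 2 h, 5 higher and 8 lower at 4 h, 3 and 2 at 24 h, 2 and 5 at 48 h, and 1 and 1 at 72 h, with a median log2 change of -0.41 at 4 h. Beside the shares given above, 4.16% of all genes were called lower at 2 h, and 7.83%, 18% and 6.12% were called higher at 24 h, 48 h and 72 h. Ahr rose by 1.09 ± 0.20 at 2 h, and Tiparp, a target and repressor of the aryl hydrocarbon receptor, went from 10.9 and 10.5 CPM in sham to 125 and 90.7 at 2 h and 206 and 161 at 4 h (log2 change 4.04 ± 0.45 at 4 h, fit of 16 libraries). At those times Cyp1a1 stayed between 0.514 and 0.696 CPM and Cyp1a2 at 862 and 874 CPM at 2 h and 428 and 578 CPM at 4 h. Nr1i3, which encodes CAR, was called lower at 4 h (log2 change -1.20 ± 0.20, edgeR adjusted p = 0.000548). Nr1i2, which encodes PXR, was called higher at 4 h (log2 change 0.54 ± 0.18, adjusted p = 0.0342). Nr1i3 stood at 32.4 and 36.2 CPM in sham, 80.2 and 68.8 at 24 h, and rose by 1.12 ± 0.18 at 24 h (adjusted p = 0.00188). Cyp2b10 was then at 34.3 and 55.5 CPM, above both sham pools (22.1 and 22.4 CPM) and not called in the fit of 16 libraries (log2 change 1.002 ± 0.462). Tef and Hlf, which bind the D-box, fell by 2.21 and 1.37 at 4 h (adjusted p = 1.84e-06 and 0.000106). Cebpa, a factor that maintains hepatocyte genes, was called lower early as well as later. It fell by 0.81 and 0.80 at 2 h and 4 h, and by 0.82 and 0.80 at 24 h and 48 h. Nr1h4, the bile acid receptor FXR, and Nr3c1, the glucocorticoid receptor, fell by 1.01 and 1.16 at 48 h. Nfe2l2, the oxidative stress factor NRF2, rose by 0.90 at 72 h. Cebpb was higher than sham by 0.83 at 2 h and 1.13 at 4 h, and lower by 0.58 at 72 h.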

How the data were processed

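RNA of pooled mouse livers was sequenced after poly(A) enrichment and random priming, per the labels' protocols. The deposited read counts are reads mapped uniquely to each gene, per the file headers, which also give each library's total. The deposited RPKM values, per the file headers, are counts scaled by gene length and library total. Reads were mapped to mm10 by the authors, as the submitters' processing notes state, with no aligner or counter named there.

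Members and gene lists were chosen with earlier results of these data known. Any member could be named. Values in every library were given for each subfamily's leading member by mean RPKM. They were also given for the 3 largest called rises and falls against sham at each time. At most 4 called genes a comparison were named from the partner and regulator lists. Cyb5a at 24 h, Nr1i3 and Nr1i2 at 4 h, and Cebpa and Cebpb at 2 h and 4 h, were named besides. Counts were tested with edgeR 4.0.16 (TMM factors, quasi-likelihood F test, Benjamini-Hochberg adjustment over all genes of a fit, calls at 0.05) in R 4.3.3, all groups sharing 1 estimate of the spread. Genes needed the CPM of 10 reads in the median library in 2 libraries and 15 reads in all. The 18-library fit held genes listed in both short tables. Comparisons with sham come from it for 24 members, all others and 24 h against 4 h and 168 h against 48 h from the 16-library fit, in which the lone sham and 0.5 h libraries are assumed to vary like the other groups. CPM values use the 18-library TMM factors. Nothing says that the pools of a group were from separate experiments, so p-values measure the spread between pools. Intervals cover counting error only. List genes absent by symbol were matched by gene ID through RefSeq (4 of 6). Unnamed rows held at most 0.0275% of reads and were left out. On simulated data for 4 h against sham, the 18-library fit (4905 genes) recovered 94% of 2-fold and 100% of 4-fold changes, and the 16-library fit (11973 genes) 26% and 86%. The simulation gave every gene of a fit the same common spread, so these shares do not hold for genes that vary more between pools. Identity was computed between the longest protein-coding GENCODE transcripts with Biopython 1.88. Protein sequences were not used here. Alternatives were DESeq2 1.42.0, limma 3.58.1, other scalings and filters, other sets of libraries, a block on replicate number and leaving out each library.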

Additional observations from a re-analysis of the deposited data

Results flagged for a closer look

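Cyp3a13 and Cyp2c29 were called on opposite sides of sham at different times, with both pools of each time on the same side of both sham pools. The log2 change of Cyp3a13 was 0.72 at 2 h and 0.95 at 4 h, and -0.64 at 48 h and -0.59 at 72 h. That of Cyp2c29 was 0.62 at 4 h and -0.79 at 72 h. Both calls of Cyp2c29 and the 72 h call of Cyp3a13 were lost when either sham pool was left out. The 2 h call of Cyp3a13 was lost without sham replicate 1, and its 48 h call without 48 h replicate 1. Its calls at 2 h, 48 h and 72 h were also lost in the 16 libraries. All of these comparisons share the sham pools, and the difference between the early and the later times was not tested.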

How the results depend on the processing

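Counts of members called against sham moved with the pools of sham and with those of the time itself. In the 16 complete libraries, with 1 sham library, the counts were 0 at 2 h, 6 at 4 h, 3 at 24 h, 7 at 72 h, and then 0 at both 120 h and 168 h. With unlisted genes set to 0 they were 9 at 4 h, 0 at 120 h and 0 at 168 h. DESeq2 called 6 at 120 h and 7 at 168 h. Fits of only the groups compared gave 5 at 24 h and 8 at 168 h. Library totals alone and the 17 libraries without 0.5 h replicate 1 gave 2 each at 168 h. Of the members outside the 18-library fit, 2 differed with unlisted genes set to 0, and 6 of the 8 testable in 17 libraries. Between times, totals alone gave 18 for 24 h against 4 h, and 168 h against 48 h gave 13 with no filter and 16 with only those groups. Leaving out each library gave 0 to 1 calls at 2 h, 6 to 17 at 4 h, 3 to 11 at 24 h, 11 to 18 at 48 h, 2 to 15 at 72 h, 0 to 2 at 120 h, 0 to 8 at 168 h, 8 to 13 for 24 h against 4 h and 4 to 9 for 168 h against 48 h. The call at 2 h was lost without sham replicate 1. At 120 h the count was 0 without either sham or either 120 h pool and 2 without either 24 h pool. At 168 h it was 0 without either sham or either 168 h pool, 8 without either 24 h pool, and 2 without either 0.5 h or 48 h pool or 120 h replicate 1. The causes were not tested, beyond the smaller number of sham libraries.

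Pools with the same replicate number did not all deviate together: of 36 pairs of groups 14 had a correlation of deviations over 0.1, with a range of -0.55 to 0.53. The numbers are therefore not taken as a pairing. A replicate block changed the count at 120 h from 1 to 2, and gave 16 at 4 h, 10 at 24 h, 17 at 48 h, 15 at 72 h, and then 6 at 168 h. Of 285 values of the 25 named changes under alternatives, 220 stayed on their side of the threshold, 65 lost the call and 0 changed direction. From the fits that left out a library, these values hold only the lowest and the highest log2 change. Of all 90 called changes of members, against sham or between times, 32 were kept whichever library was left out. Members under about 7 CPM are limited by the short sham table.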
